A study of Rattus norvegicus with 9 samples.

Results

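The genes described here are those whose symbols mark them as proteins of the cytosolic ribosome, measured in the thalamus of young male Wistar rats. All genes named by a single symbol on the array were taken whose symbol begins with Rpl or Rps and a digit, or with Rplp, without the Rps6k kinases. This gave 49 of the 14217 named genes, 33 with an Rpl symbol, 15 with an Rps symbol and 1 with an Rplp symbol. A gene with several probe sets was represented by the one of highest mean over the 9 arrays. By symbol, 42 are subunits of the ribosome, 5 are related copies with an l in the name (Rpl7l1, Rps27l, Rpl39l1, Rpl3l and Rpl26l1) and 2 are pseudogenes (Rpl37-ps2 and Rps4x-ps1, both listed in RefSeq as transcribed pseudogenes).

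The cytosolic ribosome makes the cell's proteins from messenger RNA. Its small subunit, built from Rps proteins, reads the message, and its large subunit, built from Rpl proteins, joins the amino acids, with the P proteins forming a stalk that recruits elongation factors. The messenger RNAs of these proteins usually start with a pyrimidine tract, through which the mTOR pathway controls their translation together, and in neurons some of them are also found in axons and dendrites.

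The study compared 4 thalamus arrays of rats fed solid chow with 5 of rats fed powder. The labels give 10 rats, beside the 9 arrays here. All rats were 3 weeks old at the start, were kept on powder for 2 preparatory days and then had their diet for 8 days, and the labels give 5 weeks as the age of each sample. Both groups are male Wistar rats, and the labels name no allele, drug or other agent in either. The labels do not tie each array to an animal, so p-values measure the spread between arrays, which may be partly technical. In whole tissue, fewer cells of a type and less RNA per cell cannot be told apart.

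The array called chow 1 stood apart. The mean log2 value of 10 thalamic relay neuron markers was 9.78 on chow 1, against 10.1 to 10.3 on the other 8 arrays. The mean of 9 markers of striatal and cortical neurons was 7.80 there, 7.43 to 7.45 on the other chow arrays and 7.36 to 7.42 on the powder arrays, so that all chow arrays lay above all powder arrays. The mean of 12 inhibitory neuron markers was 8.99 on chow 1 and 8.59 to 8.77 elsewhere. The mean of 10 vessel markers also separated the diets, at 8.06 to 8.16 under chow and 8.17 to 8.20 under powder. Abcb1a (-0.44) and Flt1 (-0.41) had the largest differences of the 10, while 3 had positive ones, among them Rgs5 (0.22). Of the relay markers, among them Tcf7l2, Lef1 and Slc17a6, 0 of 10 were called between the diets by limma (adjusted p of 0.0808 or more among the 9 that span at least 0.01 log2 units). Of those 9, only 1 had a positive difference (chow minus powder), and their median was -0.19. For Tcf7l2 (-0.26) the groups did not overlap. The inhibitory markers gave 1 call higher and 0 lower, and the striatal and cortical markers gave 2 higher and 0 lower. All of these calls were in genes spanning under 0.01. Among markers spanning at least 0.01, 7 of 9 inhibitory and 5 of 5 striatal and cortical ones had positive differences. The largest inhibitory one was Gad2 (0.60, adjusted p = 0.0536 in limma), whose groups did not overlap. Over all genes, 14.2% were called higher and 18.8% lower. Higher and lower calls were 1 and 0 of 10 for astrocytes, 0 and 1 of 13 for oligodendrocytes, 1 and 0 of 11 for microglia, 1 and 3 of 10 for vessels, 1 and 0 of 8 for choroid plexus and ependyma, 1 and 1 of 4 for blood and 0 and 0 of 8 for dividing cells. Of these, only the 1 oligodendrocyte call and 2 vessel calls, all lower, were in genes spanning at least 0.01. The part of these cell types in what follows was not tested. Results on ribosomal protein genes are therefore also given without chow 1.

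Among the members, 17 rose under chow and 2 fell, at an adjusted p under 0.05 in limma over all genes. Over all 14217 genes, 14.2% were called higher and 18.8% lower. For 30 members the call was not reached. Of the calls, 5 higher and 1 lower were in members spanning under 0.01, whose direction depends on the scaling of the arrays. The 17 risen genes were all ribosome subunits by symbol, and the 2 that fell were the pseudogene Rpl37-ps2 and Rpl7l1, which encodes a nucleolar relative of Rpl7. The large subunit gave 12 higher and 2 lower among 33 Rpl symbols, and the small subunit gave 5 higher and 0 lower among 15 Rps symbols. The 4 chow values lay above all 5 powder values for 17 members and below them for 2, where 12.3% and 16.9% of all genes did so.

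As deposited, most probe sets of this array hardly vary between arrays, so the size of a difference could be read only for genes whose 9 values span at least 0.01 log2 units. This was the case for 23 of 49 members (46.9%) and for 2414 of all genes (17.0%). Of those 23 members, 12 rose, 1 fell and 10 were not called. Among all 2414 such genes, 9.03% were called higher and 40.2% lower. The median difference (chow minus powder) was 0.12 over the 23 members and -0.12 over the 2414 genes, and 22 of the 23 members had a positive difference, against 669 of the 2414 genes. All chow values exceeded all powder values for 11 of the 23 and lay below them for 1, as they did for 8.29% and 37.9% of the 2414 genes. The 22 subunit genes are bright, with mean log2 values of 10.6 to 12.2. Among the 242 other genes that span at least 0.01 and have a mean of 10.6 or more, 12% were called higher and 24% lower, so the split of other bright genes was also toward lower values. The set of 242 was drawn up after the values of the members had been seen.

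**Figure D1:**
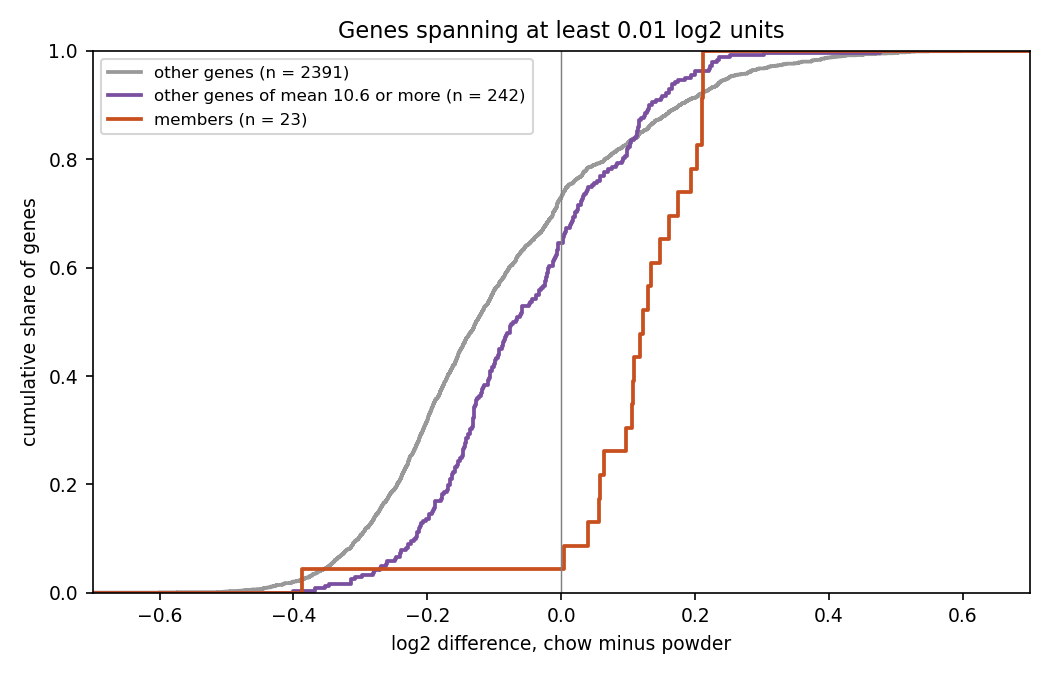
Cumulative share of genes (vertical axis) by log2 difference, chow minus powder (horizontal axis), for the 23 members, the 242 other genes of mean 10.6 or more and all other genes, in each case among genes spanning at least 0.01 log2 units. The line of the members lies to the right of 0 for all but Rpl37-ps2, while most of the other genes lie to its left.

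The increases were small, from 1.05-fold for Rpl22 to 1.16-fold for Rpl11. Rpl11, which with Rpl5 and the 5S RNA forms a particle that also binds the p53 regulator Mdm2, was at 11.53, 11.47, 11.45 and 11.37 on chow 1 to 4 and at 11.24, 11.15, 11.22, 11.34 and 11.25 on powder 1 to 5 (log2 values). All chow arrays were above all powder arrays, with chow 4 and powder 4 closest to each other. The difference was 0.21 ± 0.045 (SE, adjusted p = 0.0135). Rpl26, a protein near the exit of the peptide tunnel, was at 12.34, 12.36, 12.17 and 12.22 under chow and at 12.07, 12.00, 12.15, 12.09 and 11.99 under powder. The groups did not overlap, and its difference was 0.21 ± 0.050 (adjusted p = 0.0185).

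Rpl24, a protein of the large subunit, was at 11.27, 11.18, 11.15 and 11.16 under chow and at 11.00, 10.90, 10.96, 11.03 and 11.04 under powder. Chow 1 was highest and the other 3 chow arrays lay close together, above all powder arrays (0.20 ± 0.037, adjusted p = 0.00857). Rpl23, which lies at the interface of the subunits, was at 11.61, 11.55, 11.54 and 11.53 under chow and at 11.40, 11.34, 11.39, 11.43 and 11.36 under powder. The gap between its groups was wider than the range within either of them (0.17 ± 0.024, adjusted p = 0.00387). Rpl34, another protein of the large subunit, was at 11.77, 11.82, 11.77 and 11.74 under chow and at 11.63, 11.68, 11.67, 11.65 and 11.65 under powder. Here chow 2 and not chow 1 was the highest array, and the difference was 0.12 ± 0.016 (adjusted p = 0.0038).

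The other large-subunit genes that rose were Rpl12, at the base of the stalk (0.13 ± 0.041, adjusted p = 0.0404), Rpl19 (0.13 ± 0.038, adjusted p = 0.0361) and Rpl22, an RNA-binding protein that the ribosome can do without (0.064 ± 0.020, adjusted p = 0.0461). The groups of Rpl12 and Rpl19 did not overlap. For Rpl22, chow 4 was at the level of powder 4, both at 10.60. Without chow 1 none of these 3 was called (adjusted p = 0.0807, 0.0768 and 0.0965). The loss was not particular to chow 1. Rpl12, Rpl19 and Rpl22 were called in 2, 3 and 1 of the 9 fits with 1 array left out.

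In the small subunit, Rps15a was at 11.42, 11.33, 11.24 and 11.29 under chow and at 11.11, 11.09, 11.14, 11.10 and 11.11 under powder. The powder arrays lay within a narrow band (SD 0.017) and the chow arrays were spread above it (SD 0.074), with a difference of 0.21 ± 0.033 (adjusted p = 0.00542). Rps16 was at 11.99, 11.90, 11.82 and 11.82 under chow and at 11.65, 11.66, 11.71, 11.71 and 11.70 under powder. It too had tight powder values and no overlap (0.19 ± 0.037, adjusted p = 0.0096). Rps3, which lines the channel where the message enters, was at 11.14, 11.02, 10.95 and 10.94 under chow and at 10.82, 10.82, 10.85, 10.94 and 10.88 under powder. Its lowest chow array and highest powder array were level, and the difference was 0.15 ± 0.047 (adjusted p = 0.0454). Without chow 1 it was 0.10 and not called (adjusted p = 0.0607). Rps15 differed by 0.11 ± 0.032 (adjusted p = 0.0356), with no overlap. Rps3 and Rps15 were called in 3 and 4 of the 9 fits with 1 array left out.

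**Figure D2:**
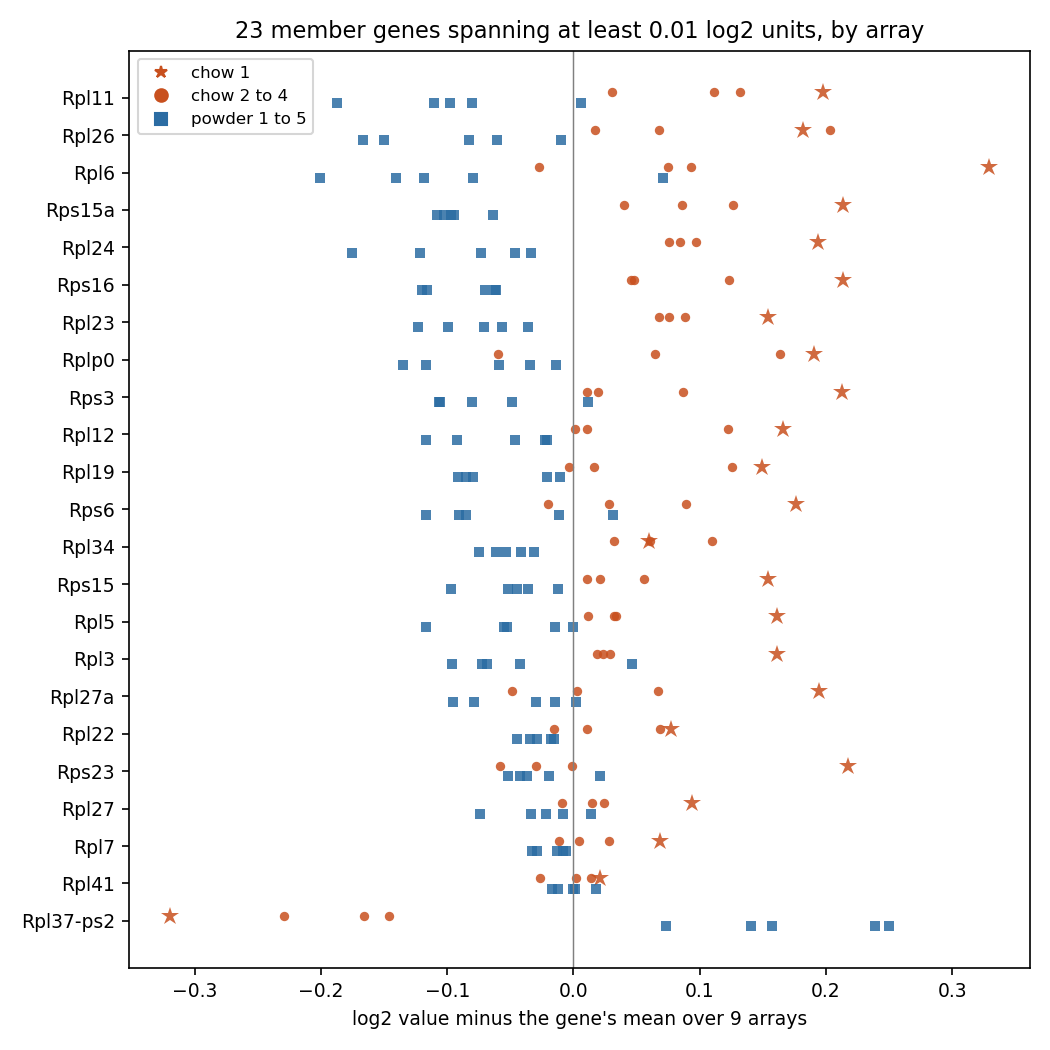
Log2 value of each of the 23 members spanning at least 0.01, on each array, minus the mean of that gene over the 9 arrays (horizontal axis). Stars mark chow 1, circles chow 2 to 4 and squares powder 1 to 5. Chow 1 was the highest array for 20 of the 22 subunit genes and was the lowest for Rpl37-ps2.

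The 10 subunit genes spanning at least 0.01 that were not called all had positive differences. Rpl6, a protein of the large subunit, was at 0.21 (95% interval 0.020 to 0.40, adjusted p = 0.0823), and its values on chow 1 (11.50) and chow 4 (11.15) were further apart than the group means. Rplp0, the protein that anchors the P stalk and the sole member with an Rplp symbol, was at 0.16 (0.033 to 0.29, adjusted p = 0.0571). Rps6, the substrate from which the S6 kinases take their name, was at 0.12 (0.012 to 0.23, adjusted p = 0.0821). Rpl5, the partner of Rpl11, was at 0.11 (0.022 to 0.19, adjusted p = 0.0583) with no overlap, and Rpl3, which lies at the peptidyl transferase centre, was at 0.11 (0.011 to 0.20, adjusted p = 0.0799). Below these came Rpl27a (0.097), Rps23 of the decoding centre (0.058), Rpl27 (0.056), Rpl7 (0.040) and Rpl41 (0.0047), the last with an interval of -0.021 to 0.031. Without chow 1 the differences were 0.14 for Rpl6, 0.050 for Rpl27a, 0.035 for Rpl27, 0.025 for Rpl7, -0.0037 for Rps23 and -0.0013 for Rpl41.

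**Figure D3:**
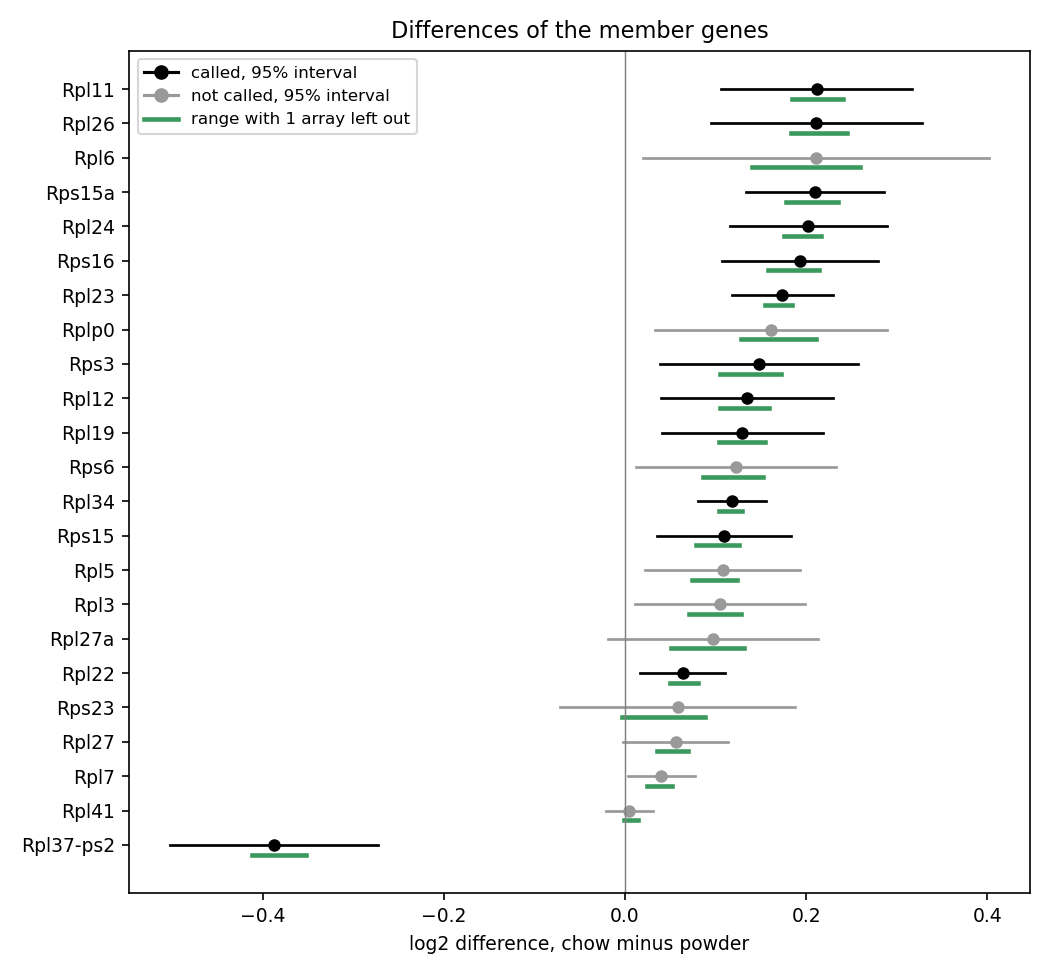
Log2 difference, chow minus powder (horizontal axis), of the 23 members, with the 95% interval from limma (black where called, grey where not) and, in green, the range of the difference with each array left out in turn. The 12 called subunit genes lie between 0.064 and 0.21, and Rpl37-ps2 lies at -0.39.

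Over the 22 subunit genes, the mean deviation from each gene's own mean was 0.16 on chow 1, 0.074 on chow 2, 0.027 on chow 3 and 0.026 on chow 4. On powder 1 to 5 it was -0.078, -0.088, -0.042, -0.026 and -0.055. Chow exceeded powder by 0.13 (0.072 ± 0.065 and -0.058 ± 0.025, SD, n = 4 and 5), and by 0.10 without chow 1. Without chow 1, 8 of the 23 members were called higher and Rpl37-ps2 lower. In that fit, 184 of the 2414 genes spanning at least 0.01 were called higher and 876 lower. With each array left out in turn, Rpl11, Rpl26, Rps15a, Rpl24, Rps16, Rpl23 and Rpl34 were called higher in all 9 fits. The number called higher among the 23 was 7 without powder 1, powder 2 or powder 5. Of the 2414 genes of that span, 159, 168 and 191 were called higher in those fits.

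RNA quality controls were compared with no test. The 5′ minus 3′ log2 difference of the beta-actin control was -1.58 to -1.44 on the chow arrays and -1.70 to -1.55 on the powder arrays, and that of GAPDH was -0.61 to -0.36 and -0.66 to -0.50. Both sets of ranges overlapped between the diets, for beta-actin only through chow 2 (-1.58) and powder 4 (-1.55). The other chow arrays all lay above every powder array for beta-actin. The 3′ beta-actin control itself was at 12.56 to 12.63 under chow and 12.41 to 12.50 under powder, without overlap. The 5′ and middle beta-actin controls and the middle GAPDH control were also higher under chow without overlap, by 0.26, 0.19 and 0.073. The 5′ GAPDH control was 0.094 higher, with overlap. The 3′ GAPDH and hexokinase controls differed by 0.000025 and 0.000084, but they hardly vary between arrays, so the size of these differences cannot be read. With the beta-actin difference as a covariate, an alternative added after the data had been seen, 2 members were called, Rps15a (0.25, adjusted p = 0.0476) and Rpl34 (0.13, adjusted p = 0.0429), and 724 of all genes. Under it the differences of the 22 subunit genes stayed positive, with Rpl11 at 0.16 and Rpl26 at 0.23.

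The 7 genes called in all 9 of those fits are shown by the bases around their transcription start, because a pyrimidine tract there is the sequence feature that the messages of ribosomal proteins share, and Rpl41, with a difference near 0, is shown for comparison. Each is 60 bases from RefSeq, build GRCr8, 45 before the annotated start and 15 from it on, read along the gene. Capitals mark the longest run of C or T within 15 bases either side of the start, where it has at least 6 bases.
Rpl34: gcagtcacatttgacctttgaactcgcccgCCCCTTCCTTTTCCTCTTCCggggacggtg
Rpl23: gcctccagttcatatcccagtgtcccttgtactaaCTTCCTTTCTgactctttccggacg
Rps15a: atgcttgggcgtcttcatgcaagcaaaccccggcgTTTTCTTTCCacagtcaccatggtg
Rpl24: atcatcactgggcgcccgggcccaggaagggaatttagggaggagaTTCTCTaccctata
Rpl11: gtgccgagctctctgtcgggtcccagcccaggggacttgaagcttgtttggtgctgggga
Rpl26: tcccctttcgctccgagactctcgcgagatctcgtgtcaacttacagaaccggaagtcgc
Rps16: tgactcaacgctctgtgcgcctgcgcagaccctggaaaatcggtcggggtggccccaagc
Rpl41: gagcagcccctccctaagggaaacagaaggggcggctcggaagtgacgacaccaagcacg

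These lie at chr2:221962269-221962328 (minus strand) for Rpl34, chr10:83272170-83272229 (minus) for Rpl23, chr1:181860270-181860329 (minus) for Rps15a, chr11:58128391-58128450 (minus) for Rpl24, chr5:153560788-153560847 (minus) for Rpl11, chr10:54109647-54109706 (plus) for Rpl26, chr1:92770613-92770672 (plus) for Rps16 and chr7:1563483-1563542 (minus) for Rpl41. A run of 20 pyrimidines spans the start of Rpl34, those of Rpl23 and Rps15a end just before the start, and the windows of Rpl11, Rpl26, Rps16 and Rpl41 hold no run of 6 near it. The annotated starts may differ from those used in the thalamus.

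RefSeq promoters were matched for 37 of the 42 subunit genes and 11733 of all named genes. Where a symbol had several, the first by chromosome and position was used, here and for the printed bases. Other annotated starts of such genes were not searched. A pyrimidine run of at least 6 within 15 bases of the start was present in 30 of the 37 (81.1%) and in 26.6% of all. It was present in 9 of 12 called subunit genes spanning at least 0.01, in 5 of the 8 matched among those not called and in 16 of the 17 matched among those spanning under 0.01. The motif CTTCCG, on either strand and within 300 bases (250 before the start and 50 from it on), was found in 17 of the 37 (45.9%) and in 26.9% of all. It is the core bound by ETS factors, and it can overlap a pyrimidine run. The motif AAGATGGCG, part of the YY1 site, was found on either strand in 3 of the 37 (8.11%) and in 3.13% of all. Of the 5 related copies with an l in the name, 1 had the pyrimidine run.

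Rpl37-ps2, the pseudogene, had the largest difference of all members and went the other way. It was at 7.63, 7.79, 7.72 and 7.81 under chow and at 8.19, 8.11, 8.20, 8.03 and 8.09 under powder. The groups lay far apart, with a difference of -0.39 ± 0.049 (0.76-fold, adjusted p = 0.00311), and -0.35 without chow 1. Its parent gene Rpl37 has no probe set of its own among the members, and a signal of the pseudogene cannot be told from one of its parent.

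The other 26 members span at most 0.0009 log2 units, so their calls carry almost no size and a direction that depends on the scaling of the arrays. Called higher were Rpl23a, Rpl7a, Rps9, Rpl14 and Rpl37a, with differences of 0.000173 to 0.000245, and called lower was Rpl7l1 (-0.000336). The other 20 were not called. They were Rps3a, Rpl39, Rpl18, Rpl35, Rpl4, Rps24, Rpl35a, Rps27l, Rps13, Rpl13a, Rpl21, Rpl39l1, Rps4x-ps1, Rpl28, Rpl30, Rps28, Rps4y2, Rpl3l, Rps29 and Rpl26l1. Among all genes spanning under 0.01, 15.2% were called higher and 14.4% lower. Subtracting the array medians moved the median difference of all genes by 0.0066, which exceeds the span of each of these 26 genes, and all 26 were then called higher.

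Probe sets of the same gene could be compared for 5 members, and in 0 of them did a second probe set span at least 0.01. For Rps24 the dimmer probe set was called lower (-0.0037, adjusted p = 0.0116) and the brighter one was not called. For Rpl7l1, called lower by its brighter probe set, the other probe set had a difference of 0.00016 and was not called (adjusted p = 0.225). RefSeq lists pseudogenes or related copies with names derived from the gene for 43 of the 49 members, up to 26 for Rpl7 and Rpl23a, so a probe set may read more than 1 locus. The array also has 36 probe sets to which the annotation gives several symbols, at least 1 of them of this family. They are outside the members, and no gene is named from them. Of these, 22 span at least 0.01, and all 22 had positive differences (0.030 to 0.21, median 0.14). In the limma fit over all probe sets 13 of the 22 were called higher and 0 lower, where 16.1% and 38.8% of all probe sets of that span were called.

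Other genes of protein synthesis were counted in the same fit, in which 14.2% of all genes were called higher and 18.8% lower. Of 95 measured ribosome biogenesis genes, 5 were higher and 32 lower, and of the 11 that span at least 0.01, 10 fell and 1 rose. Over all genes of that span, 40.2% were called lower and 9.03% higher. Noc2l, a nucleolar protein, fell most (-0.43 ± 0.034, adjusted p = 0.00143), followed by Las1l, which takes part in cutting the ribosomal RNA precursor (-0.34 ± 0.042, adjusted p = 0.00282), Gnl2, a GTPase of large-subunit assembly (-0.32 ± 0.045, adjusted p = 0.0041), and Bms1, a GTPase of small-subunit assembly (-0.28 ± 0.040, adjusted p = 0.00424). Nop10, of the particles that modify ribosomal RNA, was the 1 that rose (0.20 ± 0.047, adjusted p = 0.0187). The list's median over those 11 genes was -0.26, beside -0.12 for all genes of that span, so the list and the background lean the same way.

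Among 33 genes of S6 kinase and mTOR signalling, 2 were higher and 8 lower. Of the 10 that span at least 0.01, 4 were called, all lower, a share close to the 40.2% of all genes of that span. They were Rictor of mTOR complex 2 (-0.37 ± 0.052, adjusted p = 0.00398), Rps6kb1, the kinase of Rps6 (-0.35 ± 0.034, adjusted p = 0.00206), the mTOR inhibitor Tsc1 (-0.26 ± 0.057, adjusted p = 0.0154) and the kinase Rps6ka3 (-0.23 ± 0.045, adjusted p = 0.0113). Among 37 initiation factor genes, 6 were higher and 7 lower. Eif4ebp2, the repressor of cap-dependent initiation prominent in brain, rose (0.37 ± 0.047, adjusted p = 0.00302), as did Eif3m (0.011 ± 0.0029, adjusted p = 0.0244). Elongation, release and recycling factors gave 2 higher and 3 lower of 16, with the recycling factor Abce1 at -0.22 ± 0.034 (adjusted p = 0.00539). The list of ribosome-associated proteins and chaperones gave 2 higher and 3 lower of 13. Its called genes spanning at least 0.01 were Hnrnpa1 (-0.30 ± 0.043, adjusted p = 0.00431) and Zpr1 (-0.19 ± 0.036, adjusted p = 0.0103). Hnrnpa1 is mainly a nuclear RNA-binding protein, so its place in this list is loose. The shares over all genes were 14.2% higher and 18.8% lower, and no list was tested against them.

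Mitochondrial ribosomal proteins, encoded by other genes and built into another ribosome, gave 7 higher and 3 lower of 73. Of these, 1 spans at least 0.01, Mrpl36 (0.0099 ± 0.0068, adjusted p = 0.284), so the 2 kinds of ribosome cannot be compared by size here. Quantile normalization turned the calls over all genes to 8329 higher and 1000 lower, and those over whole lists turned with it, to 82 higher and 10 lower for ribosome biogenesis and 73 and 0 for mitochondrial ribosomal proteins. Genes spanning at least 0.01 as deposited did not turn. Among them 348 were then higher and 988 lower, against 218 and 971 before.

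**Figure D4:**
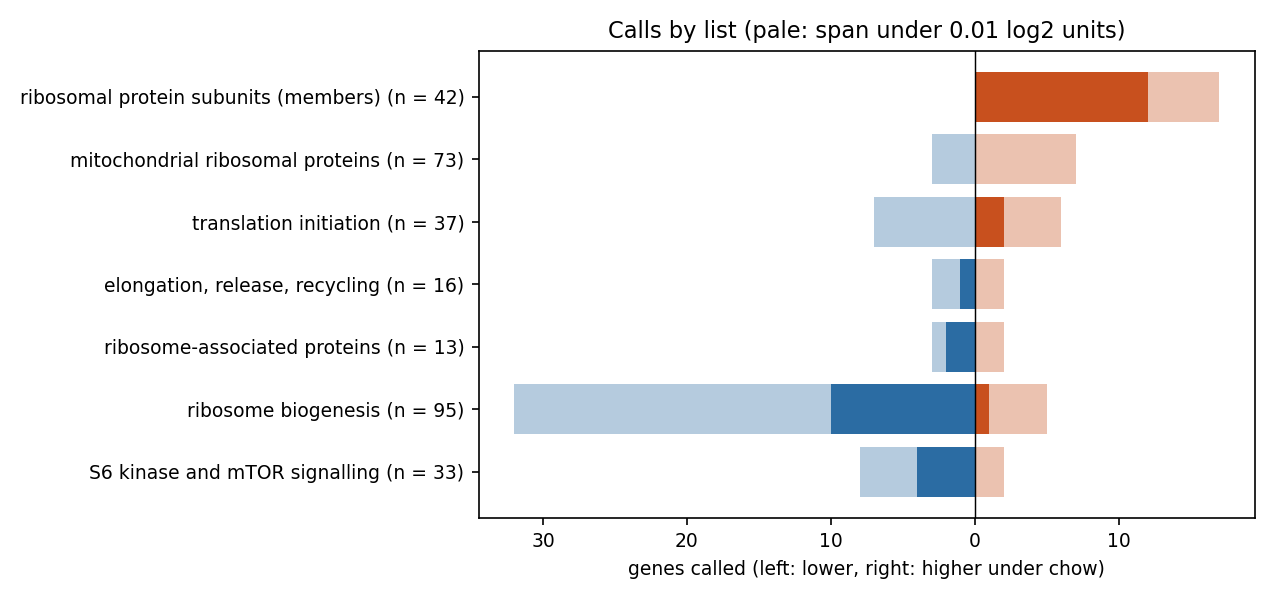
Number of genes called lower (left of 0) and higher (right of 0) under chow in the 42 ribosomal protein subunit genes and in 6 lists of other genes of protein synthesis, on the values as deposited. Full colours are genes spanning at least 0.01 log2 units, pale colours genes spanning less. The subunit genes have 17 higher and 0 lower calls, and ribosome biogenesis has 5 and 32.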

How the data were processed

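RNA from 9 thalamus samples (4 chow, 5 powder, grouped by title) was measured on 1-colour arrays. The authors deposited log2 expression values for 31099 probe sets, read as log2 from their range (5.37 to 14.0). Their software, background correction, normalization and centring were not given in the sources used here. The values were used without further normalization. Array medians separated the diets slightly (7.391 to 7.396 under chow, 7.398 to 7.402 under powder), and subtracting them was an alternative. The number of arrays limits the precision.

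After leaving out 57 control probe sets, chow minus powder was fitted in R 4.3.3 with limma 3.58.1 (lmFit, eBayes) over 14217 genes, with Benjamini-Hochberg adjustment over all of them, and over 31042 probe sets. Genes with adjusted p under 0.05 were called. The fit was tested on simulated data. Symbols came from the platform annotation, and all 49 members matched RefSeq (GRCr8). The members, lists, the 0.01 limit and tests were chosen with earlier results of these data known. Called members spanning at least 0.01 and the 5 largest uncalled ones were named by rule, with up to 4 called genes per other list. All further names were added after values were seen. The alternatives were other variance models, scalings, filters, probe set rules, array weights, a replicate block and leaving out each array. Markers of relay, inhibitory, striatal and cortical neurons were checked, as were glia, vessel, choroid plexus, blood and dividing cell markers.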

Additional observations from a re-analysis of the deposited data

Results flagged for a closer look

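In 48 tests for a sample far from the rest of its group, over the 23 members spanning at least 0.01 log2 units and the mean deviation of the subunit genes, 2 stood out, where chance gives about 1 in 20. Both were chow 1. For Rpl3 the gap between chow 1 (11.85) and the nearest other chow array was 0.928 of the range of the chow arrays, the others being at 11.70 to 11.72. For Rpl5 that share was 0.850, with chow 1 at 11.58 and the others at 11.43 to 11.45. Without chow 1 the differences were 0.071 for Rpl3 and 0.074 for Rpl5, neither of them called (adjusted p = 0.145 and 0.0844).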

How the results depend on the processing

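The direction of the 23 members spanning at least 0.01 log2 units was kept under 412 of 414 combinations of member and setting. This count overstates the support, because some settings could not turn a direction. Another variance model, or other genes left out of the fit, leaves the differences of these members as they were. The exceptions were Rps23 (-0.0037) and Rpl41 (-0.0013) without chow 1, neither called. Over all left-out arrays Rps23 reached 0.088 and Rpl41 0.014. In 58 combinations a called member was no longer called, and in 15 an uncalled one was.

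Quantile normalization gave 1 member called lower, a median difference over the 49 members of 0.023 (0.000245 as deposited), and 9329 of all genes and 248 of the 267 genes of protein synthesis called, against 4684 and 80 on the values as deposited. Subtraction of array medians gave 46 members called, 45 higher and 1 lower (19 higher among the 23), a median of 0.0068, and 13245 and 260 calls. Without the dimmest probe sets the median over the 44 members left was 0.0026. With only genes spanning at least 0.01 in the fit, 1 member was lower, the median over the 23 left was 0.12, and 1296 and 23 were called, because fewer genes were tested. With subunit symbols alone, 0 members were lower over all and among those spanning at least 0.01, and the median over these 42 was 0.022. Other causes were not tested.

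With the beta-actin covariate, 2 members were called, 2 higher and 0 lower, all spanning at least 0.01, and 16 genes of protein synthesis and 724 of all. With the replicate number as a block, 0 members were called in limma (0 higher and 0 lower, also among the 23; 14 of 49 at an unadjusted p under 0.05, 12 of them higher), as were 11 of all genes and 0 of protein synthesis. The 23 had adjusted p of 0.0544 to 0.577 there, and 22 had positive differences. Powder 5 adds nothing to that fit, having no partner. Correlations of same-numbered arrays' deviations were -0.32, 0.16, -0.38 and -0.0068. Whether same-numbered arrays share more than a number cannot be told from these values.

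With 1 array left out in turn, 12 to 20 members were called, 11 to 18 higher and 1 to 2 lower. The median over the 49 was 0.000168 to 0.000281. Among the 23 spanning at least 0.01, 7 to 12 were higher and 1 lower, and 3367 to 4413 of all genes were called. Of all genes of that span, 159 to 212 were higher and 789 to 1014 lower. The lowest member counts, 12 called and 11 higher, were without powder 1, powder 2 or powder 5. No background level was available, so signal over background was not assessed.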
